A study of Mus musculus with 4 samples.

Results

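SR proteins and heterogeneous nuclear ribonucleoproteins (hnRNPs) are the main regulators of splice site choice. They were followed here in primary spermatocytes of mice without circSRY, the circular RNA made from Sry in the adult testis. The genes were taken by name from the table of 53700 genes: every symbol of the Srsf series, every Hnrnp symbol, and Tra2a and Tra2b. This gave 33 genes, of which 11 were Srsf, 2 were Tra2 and 20 were Hnrnp genes, and all 33 were among the 17766 genes with enough counts to be tested. All matched an annotated mouse gene, 32 on autosomes and 1, Hnrnph2, on the X chromosome. The libraries came from 2 circSRY KO mice (replicates 1 and 2) and 2 control, wild type mice (replicates 2 and 3), all 8 wk old and C57BL/6. In the KO, CRISPR-Cas9 had removed the splice acceptor upstream of the Sry coding region, and the deletion was not limited to germ cells. Spermatocytes were sorted from testis by Hoechst staining, which reports DNA content, and RNA-seq was used to ask which transcripts depend on circSRY.

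SR proteins carry 1 or more RNA recognition motifs and a tail rich in arginine and serine. Bound to exonic enhancers, they recruit the U1 snRNP and U2AF to nearby splice sites. Tra2 proteins work in the same way on GA-rich enhancers. hnRNPs coat nascent transcripts and often oppose SR proteins by silencing exons, although several also activate them. Many genes of both families contain poison exons, whose inclusion sends the mRNA to nonsense-mediated decay (NMD) and lets the protein limit its own level. The testis has one of the richest patterns of alternative splicing of any tissue, and meiotic cells shift many exons as they leave the spermatogonial state.

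The circular RNA has been studied as a sponge for miR-138-5p, so the mature miRNA is shown with its seed, bases 2 to 8, in capitals. The same sequence is made from Mir138-1 on chromosome 9 and Mir138-2 on chromosome 8 (RefSeq, GRCm38.p6).
mmu-miR-138-5p: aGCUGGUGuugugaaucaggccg
The seed match CACCAGC was searched for on the sense strand of the longest annotated 3′ UTR of each gene (GENCODE M39, GRCm39). It was present in 3 of the 33 genes (9.09%), against 2686 of 14479 tested genes with a 3′ UTR (18.6%). The 4 matches are printed with the match in capitals and the coordinates of its bases.
Hnrnpa3, chr2:75498874-75498880, plus strand: agcctggaactcaatcCACCAGCc
Hnrnpr, chr4:136081104-136081110, plus strand: agacattgccttttgaCACCAGCa
Hnrnpr, chr4:136082873-136082879, plus strand: gattttttttttaaatCACCAGCt
Srsf9, chr5:115470673-115470679, plus strand: tgtatcctgagagaagCACCAGCt
The Hnrnpr matches lie in a 3′ UTR annotated at 20023 bases. A match shows only that these letters are present.

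The expected counts summed to 8839461 and 8191397 in circSRY KO and to 8045148 and 8422943 in control, so the groups had similar depth. Marker genes of several cell types differed between the groups. Summed TPM (a length-scaled transcript level with the same total in each library) of 11 leptotene and zygotene markers was 303 and 248 in circSRY KO, against 1320 and 916 in control, with all 11 genes lower in both circSRY KO libraries. The sum of 11 pachytene and diplotene markers was 10562 and 10807 in circSRY KO and 13445 and 14605 in control. Of these 11 genes 7 were lower and 2 higher in both circSRY KO libraries. By the test described below, 3 were called lower, 1 was called higher and 7 were not called. Their median log2 fold change was -0.15, with values from -4.32 to 1.66. Sycp3, a defining marker of the first list, stood at 121.86 and 61.64 TPM in circSRY KO and 430.47 and 325.96 TPM in control. Piwil1, of the pachytene list, fell far more than the median of that list. It stood at 17.24 and 31.06 TPM in circSRY KO and 643.68 and 467.84 TPM in control. Hspa2, of the same list, stood at 685.36 and 769.63 TPM in circSRY KO and 1440.49 and 1424.14 TPM in control. Elongating spermatid markers summed to 52265 and 42309 TPM in circSRY KO and 8400 and 7980 TPM in control, with all 11 higher, and 9 of 11 round spermatid markers were higher. Leukocyte markers summed to 649 and 450 TPM in circSRY KO and 46.3 and 33.5 TPM in control, with all 13 higher, and 11 of 12 stromal and 10 of 12 Sertoli markers were also higher. Leydig markers went the other way, with sums of 681 and 622 TPM in circSRY KO and 1900 and 1610 TPM in control and all 8 lower. By TPM, both circSRY KO libraries lay below both control libraries in 6885 of the 17766 tested genes (38.8%) and above both in 5245. No marker on any of the 11 lists, which cover germ and somatic cells, was at 0 in all libraries. The part of these cells in the results that follow was not tested, and in sorted bulk RNA fewer cells of a type and less RNA per cell cannot be told apart. Sry had a TPM of 0 in every library, control libraries included, so its TPM does not check the genotype. The reason for these values was not tested.

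The splicing regulators were lower in circSRY KO. Their TPM summed to 2726.61 and 3310.56 in circSRY KO and 8931.08 and 7065.88 in control, or 0.273% and 0.331% of all transcripts against 0.893% and 0.707%. Genes were tested with the quasi-likelihood method of edgeR, with p-values adjusted over all tested genes by the method of Benjamini and Hochberg. Those with an adjusted p (false discovery rate, FDR) under 0.05 that also changed by at least 1 log2 unit were called. By this rule 22 of the 33 genes were called lower and 0 were called higher, where 15.0% of all tested genes were lower and 20.0% were higher. Without the fold minimum 26 were lower. DESeq2 also called 0 higher, and in the edgeR fit of all libraries 0 of the 33 had a positive fold change with an unadjusted p under 0.05. The median log2 fold change was -1.11 over the 33 genes and 0.07 over all genes tested. In 31 of 33 genes the TPM of both circSRY KO libraries lay below both control libraries, as in 38.8% of all genes tested. The exceptions were Hnrnpa1 and Hnrnph2, whose groups overlapped. With 2 mice against 2, an exact permutation test of a single gene cannot give a two-sided p below 0.33, so the calls rest on the spread shared across genes.

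The count of calls depended on the libraries in the fit. It was 7 without control replicate 2, 14 without control replicate 3, 22 without circSRY KO replicate 1 and 17 without circSRY KO replicate 2. The share of all tested genes called lower moved as well. It was 5.73% without control replicate 2, 10.8% without control replicate 3, 16.6% without circSRY KO replicate 1 and 18.5% without circSRY KO replicate 2, against 15.0% with all libraries. Control replicate 2 was above control replicate 3 in 32 of 33 genes, by a median ratio of 1.25. The 7 genes called with all libraries and under all 12 alternatives across genes were Hnrnpl, Hnrnpa0, Hnrnpul2, Hnrnpm, Hnrnpa2b1, Hnrnph3 and Srsf1.

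**Figure D1:**
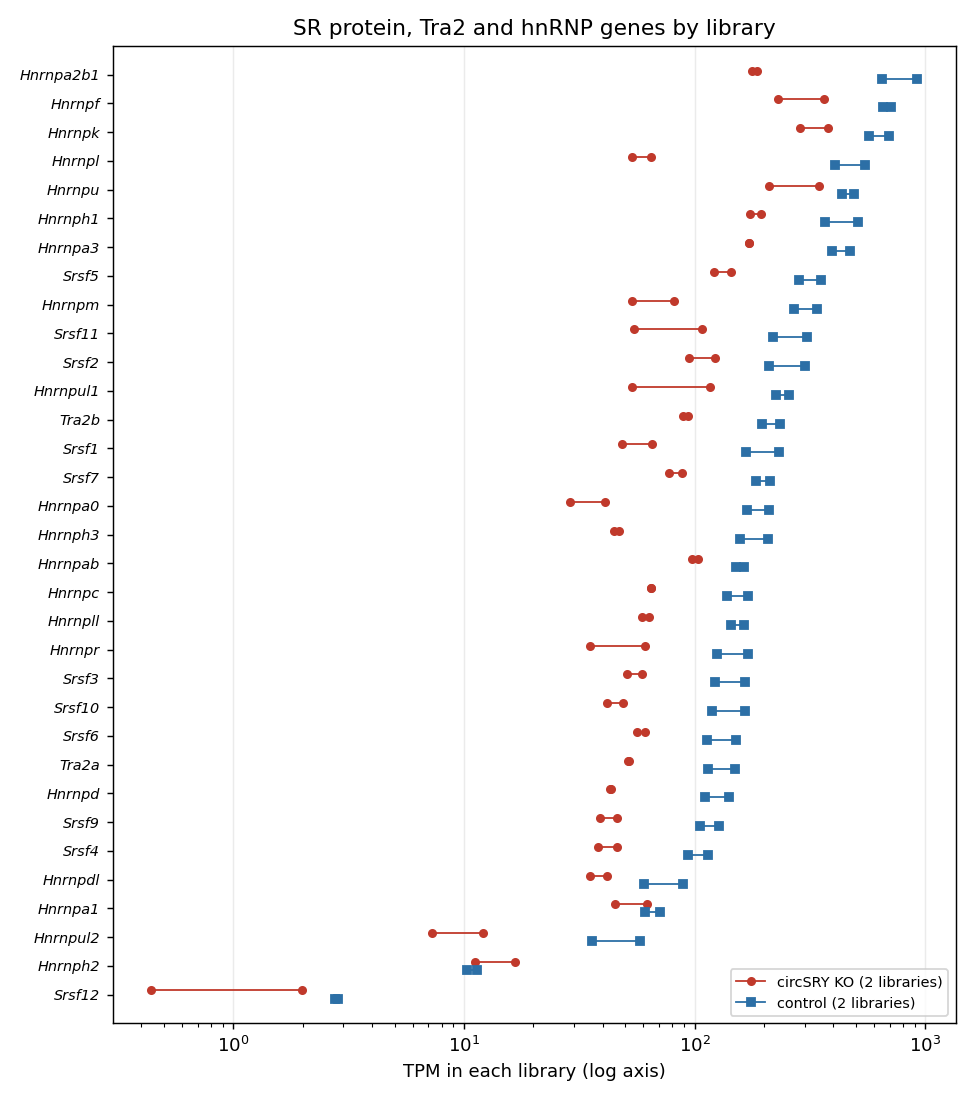
TPM of each gene in each library on a log axis, with circSRY KO as red circles above control as blue squares in each row, and a line joining the 2 libraries of a group. The groups are apart in 31 of 33 rows and overlap for Hnrnpa1 and Hnrnph2.

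The SR and Tra2 genes moved within a narrow range. Of these 13 genes, 9 were called lower, the median log2 fold change was -1.18 and the values ran between -1.71 and -0.82. Srsf1, the founding SR protein, which shuttles between nucleus and cytoplasm, had 48.51 and 65.34 TPM in circSRY KO and 231.95 and 166.52 TPM in control. Both circSRY KO libraries were far below control, and Srsf1 had the lowest log2 fold change of the SR genes, -1.71 (SE 0.321, edgeR adjusted p = 0.00111).

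The SR proteins with a pair of RNA recognition motifs are Srsf1, Srsf4, Srsf5, Srsf6 and Srsf9, and 3 of these 5 were called. Srsf4 had 38.11 and 46.01 TPM in circSRY KO and 114.21 and 93.25 TPM in control (log2 fold change -1.04, SE 0.301, edgeR adjusted p = 0.0146). Srsf9, which holds a miR-138-5p seed match, had 46.15 and 38.93 TPM in circSRY KO and 127.39 and 105.33 TPM in control (log2 fold change -1.20, SE 0.318, edgeR adjusted p = 0.00905). Neither gene had overlapping groups. Srsf5, the most abundant SR gene by TPM in both control libraries, had 121.46 and 143.96 TPM in circSRY KO and 354.67 and 283.91 TPM in control and was just outside the FDR threshold (log2 fold change -0.82, SE 0.312, edgeR adjusted p = 0.0503). Srsf6 met the FDR threshold (edgeR adjusted p = 0.0466) with a log2 fold change of -0.85, under the fold minimum.

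The SR proteins with a single RNA recognition motif are Srsf2, Srsf3 and Srsf7, of which 1 was called. Srsf3, which also links mRNA to the export receptor Nxf1, had 58.98 and 50.84 TPM in circSRY KO and 164.91 and 122.03 TPM in control (log2 fold change -1.18, SE 0.333, edgeR adjusted p = 0.0128). Srsf2, the nuclear speckle protein known as SC35, had 122.24 and 94.45 TPM in circSRY KO and 301.34 and 210.64 TPM in control (log2 fold change -0.93, SE 0.328, edgeR adjusted p = 0.0371). Srsf7, which carries a zinc knuckle, had 77.15 and 88.42 TPM in circSRY KO and 212.62 and 185.22 TPM in control (log2 fold change -0.98, SE 0.303, edgeR adjusted p = 0.0201). Srsf2 and Srsf7 thus met the FDR threshold and missed the fold minimum, with no overlap between groups.

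All 5 genes of the Srsf10, Srsf11, Srsf12, Tra2a and Tra2b group were called lower. Srsf10, which represses splicing when it is dephosphorylated, as after heat shock, had 41.75 and 48.94 TPM in circSRY KO and 165.71 and 118.88 TPM in control (log2 fold change -1.22, SE 0.309, edgeR adjusted p = 0.00706). Srsf11, known for a role in neuronal microexons, had 54.36 and 108.18 TPM in circSRY KO and 306.16 and 218.14 TPM in control (log2 fold change -1.30, SE 0.334, edgeR adjusted p = 0.00756). The circSRY KO libraries differed from each other in Srsf11 more than in Srsf10, and both stayed below control. Tra2a had 51.96 and 51.37 TPM in circSRY KO and 149.73 and 114.25 TPM in control (log2 fold change -1.22, SE 0.309, edgeR adjusted p = 0.00713). Tra2b had 89.05 and 93.92 TPM in circSRY KO and 234.33 and 196.59 TPM in control (log2 fold change -1.02, SE 0.326, edgeR adjusted p = 0.0230). Neither Tra2 gene had overlapping groups. The circSRY KO mice were close in Tra2b TPM but not in its expected counts, 1390 and 870 in circSRY KO, and its log2 fold change was -1.32 without circSRY KO replicate 1 and -0.78, with the call lost, without circSRY KO replicate 2. The call was also lost without either control library. Tra2b did not stand apart in this. Srsf4, Srsf9, Hnrnpc and Tra2b were each called in 8 of the 12 alternatives, and Hnrnpk in 6. Srsf12 was the lowest of the 33 genes in every library, with 9 and 14 expected counts in circSRY KO and 30 and 34 in control. Its log2 fold change of -1.52 had the widest standard error (0.529, edgeR adjusted p = 0.0344), and it was called in 4 of the 12 alternatives.

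The hnRNP genes spread more widely. Of 20, 13 were called lower, the median log2 fold change was -1.09 and the values ran between -2.54 and 0.69. Hnrnpl, which binds CA-rich elements, was the lowest of all, with 53.27 and 64.46 TPM in circSRY KO and 548.13 and 407.49 TPM in control (log2 fold change -2.54, SE 0.335, edgeR adjusted p = 0.000122). Ranked by TPM among the 33 genes, Hnrnpl was in place 19 and 16 in circSRY KO and in place 4 and 5 in control. The gene lies at chr7:28507966-28521693 on the plus strand (GRCm39).

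The A/B proteins bind UAG-containing silencers and are the classical antagonists of Srsf1. Hnrnpa2b1, which also takes part in mRNA transport, had 177 and 186.9 TPM in circSRY KO and 922.5 and 649.68 TPM in control (log2 fold change -1.93, SE 0.341, edgeR adjusted p = 0.000766). It made up 6.49% and 5.65% of the summed TPM of the 33 genes in circSRY KO and 10.3% and 9.19% in control. Hnrnpa0, a binder of AU-rich mRNAs, had 40.68 and 28.69 TPM in circSRY KO and 210.92 and 169.31 TPM in control (log2 fold change -2.17, SE 0.355, edgeR adjusted p = 0.000469). Both of these genes fell with groups far apart. Hnrnpa3 had 172.04 and 171.58 TPM in circSRY KO and 470.19 and 392.25 TPM in control (log2 fold change -0.98, SE 0.321, edgeR adjusted p = 0.0254), short of the fold minimum. Hnrnpa1, singled out after its values were seen, had 45.16 and 62.28 TPM in circSRY KO and 70.58 and 61.06 TPM in control. Its log2 fold change was -0.02 (SE 0.295, edgeR adjusted p = 0.974), and the sign turned with upper-quartile scaling, without control replicate 2 and without circSRY KO replicate 1. Hnrnpa1 overlaps Cbx5 on the other strand, and the kit did not mark strand. Such overlap is common here, as 27 of the 33 genes overlap exons of another gene, and its part was not tested.

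The F/H proteins bind runs of G. Hnrnph1 had 173.09 and 193.4 TPM in circSRY KO and 513.21 and 367.25 TPM in control (log2 fold change -1.35, SE 0.332, edgeR adjusted p = 0.00581). Hnrnph3, a shorter relative, had 44.87 and 46.8 TPM in circSRY KO and 208.61 and 157.08 TPM in control (log2 fold change -1.73, SE 0.317, edgeR adjusted p = 0.000960). In both genes the circSRY KO libraries were close together in TPM and below control. The expected counts of Hnrnph3 were further apart, 377 and 258 in circSRY KO. Hnrnpf, which ranked first or second among the 33 genes in every library, had 230.93 and 363.53 TPM in circSRY KO and 713.43 and 655.56 TPM in control and was not called (log2 fold change -0.77, SE 0.326, edgeR adjusted p = 0.0728). Hnrnph2, the X-linked gene, had 11.19 and 16.68 TPM in circSRY KO and 11.42 and 10.28 TPM in control, with overlapping groups. Its log2 fold change of 0.69 was the highest of the 33 genes (SE 0.335, edgeR adjusted p = 0.118).

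With all libraries in the fit, the C, K, L, LL, M and R genes were all called, 6 of 6. Hnrnpm, which binds GU-rich sequence, had 81.05 and 53.32 TPM in circSRY KO and 339.85 and 268.37 TPM in control (log2 fold change -2.04, SE 0.336, edgeR adjusted p = 0.000493). Hnrnpk, a KH-domain binder of C-rich RNA, had 285.71 and 378.79 TPM in circSRY KO and 696.49 and 571.51 TPM in control (log2 fold change -1.08, SE 0.323, edgeR adjusted p = 0.0170). Hnrnpk was the most abundant of the 33 genes in both circSRY KO libraries and in place 3 in both control libraries. Hnrnpc, a binder of U tracts, had 64.76 TPM in each circSRY KO library and 170.86 and 138.43 TPM in control (log2 fold change -1.03, SE 0.307, edgeR adjusted p = 0.0166). Hnrnpr, a relative of Syncrip that holds 2 seed matches of miR-138-5p, had 35.16 and 60.75 TPM in circSRY KO and 170.45 and 125.62 TPM in control (log2 fold change -1.03, SE 0.300, edgeR adjusted p = 0.0148). Hnrnpll, known for CD45 splicing in T cells, had 58.91 and 63.11 TPM in circSRY KO and 164.39 and 143.75 TPM in control (log2 fold change -1.11, SE 0.313, edgeR adjusted p = 0.0129). None of these groups overlapped.

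Among the AB/D genes 1 of 3 was called. Hnrnpd, known as AUF1 for its part in the decay of AU-rich mRNAs, had 42.95 and 43.43 TPM in circSRY KO and 141.32 and 111.48 TPM in control (log2 fold change -1.34, SE 0.307, edgeR adjusted p = 0.00404). Hnrnpab had 97.53 and 103.27 TPM in circSRY KO and 164.22 and 150.61 TPM in control (log2 fold change -0.42, SE 0.307, edgeR adjusted p = 0.297), and Hnrnpdl had a log2 fold change of -0.77 (SE 0.306, edgeR adjusted p = 0.0594). Of the U genes 2 of 3 were called. Hnrnpul2 had 7.27 and 12.14 TPM in circSRY KO and 57.95 and 35.83 TPM in control (log2 fold change -2.05, SE 0.334, edgeR adjusted p = 0.000460). Hnrnpul1 had 53.42 and 117.01 TPM in circSRY KO and 256.42 and 225.73 TPM in control (log2 fold change -1.33, SE 0.358, edgeR adjusted p = 0.00983). Its circSRY KO libraries differed from each other by more than its control libraries did. Hnrnpu, the scaffold attachment factor SAF-A, had 209.65 and 344.56 TPM in circSRY KO and 493.04 and 433.33 TPM in control and was not called (log2 fold change -0.56, SE 0.340, edgeR adjusted p = 0.205).

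**Figure D2:**
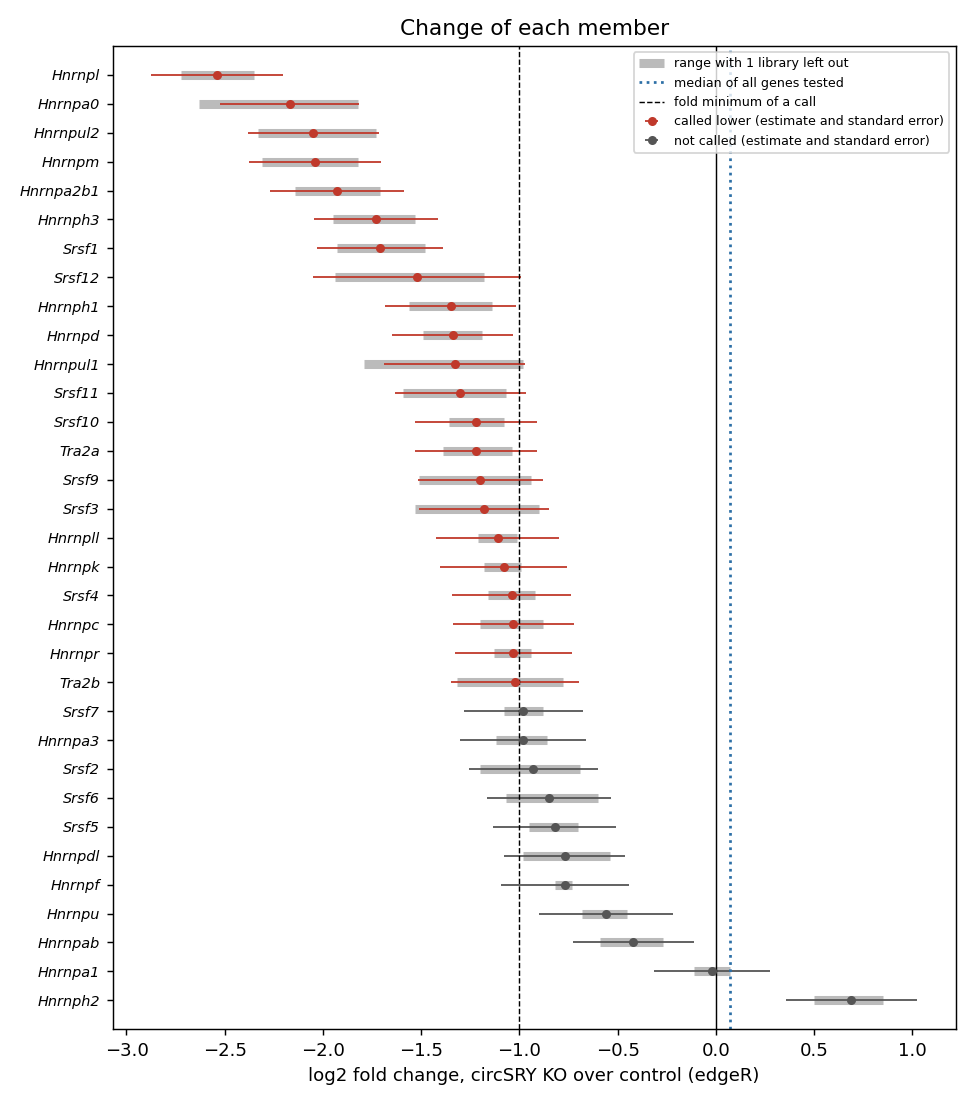
Log2 fold change of circSRY KO over control for each gene (points, bars of 1 standard error), with the range over fits that leave out 1 library in grey, the median of all genes as a dotted line and the fold minimum as a dashed line. The 22 genes called lower are in red, from Hnrnpl at -2.54 to Tra2b at -1.02, and the 11 not called are in grey.

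The balance of the 2 families overlapped between the groups. Srsf and Tra2 TPM summed to 806.61 and 893.36 in circSRY KO and 2517.66 and 1930.92 in control, and Hnrnp TPM to 1920 and 2417.2 in circSRY KO and 6413.42 and 5134.96 in control. The ratio of Hnrnp to Srsf and Tra2 was 2.38 and 2.71 in circSRY KO and 2.55 and 2.66 in control. Within the hnRNPs, pairs of paralogues differed, chosen after the values were seen and with no test of the difference. Hnrnpa1 stood at 25.5% and 33.3% of the Hnrnpa2b1 TPM in circSRY KO, against 7.65% and 9.40% in control. Hnrnph2 stood at 6.46% and 8.62% of the Hnrnph1 TPM in circSRY KO, against 2.23% and 2.80% in control. Hnrnpll was level with Hnrnpl in circSRY KO, at 111% and 97.9% of its TPM, against 30.0% and 35.3% in control. Hnrnpul2 went the other way, at 13.6% and 10.4% of Hnrnpul1 in circSRY KO and 22.6% and 15.9% in control.

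**Figure D3:**
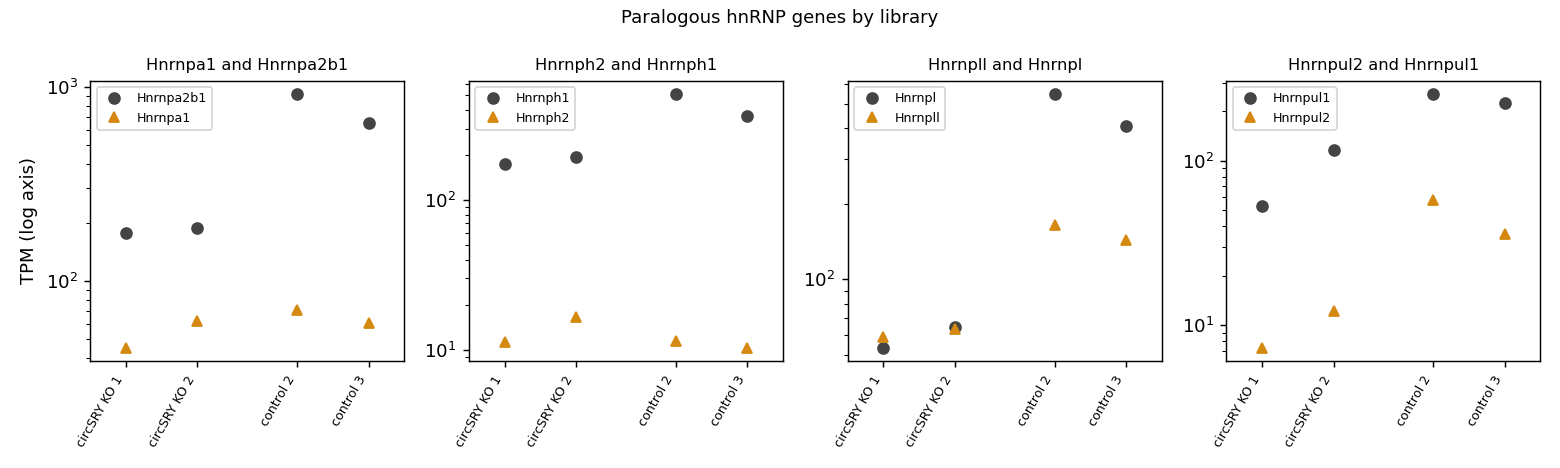
TPM on a log axis of 4 pairs of hnRNP paralogues in each library, with circSRY KO replicates left of control replicates in each panel. Hnrnpll and Hnrnpl meet in circSRY KO, at 111% and 97.9%, while the groups overlap for Hnrnpa1 and Hnrnph2 and are apart for their partners.

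The promoters of the extreme genes are shown so that genes with the lowest and the highest fold change, and Hnrnpa1, can be compared. Each runs from 250 bases before to 50 bases after a RefSeq start (GRCm38.p6), with CCAAT on either strand in capitals.
Hnrnpl, chr7:28810640-28810939, plus strand: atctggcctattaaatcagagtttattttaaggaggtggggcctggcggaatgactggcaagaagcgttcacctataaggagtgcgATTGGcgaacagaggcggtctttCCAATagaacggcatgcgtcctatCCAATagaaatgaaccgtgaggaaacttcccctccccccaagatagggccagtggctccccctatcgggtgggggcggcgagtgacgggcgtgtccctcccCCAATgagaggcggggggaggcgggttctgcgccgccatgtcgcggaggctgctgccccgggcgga
Hnrnpa1, chr15:103240147-103240446, plus strand: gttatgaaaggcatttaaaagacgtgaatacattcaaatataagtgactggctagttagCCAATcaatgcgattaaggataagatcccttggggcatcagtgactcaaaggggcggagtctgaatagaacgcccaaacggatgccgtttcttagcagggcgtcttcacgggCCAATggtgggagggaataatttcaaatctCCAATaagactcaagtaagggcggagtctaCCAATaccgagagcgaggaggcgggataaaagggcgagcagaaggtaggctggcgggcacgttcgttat
Hnrnph2, chrX:134600929-134601228, plus strand: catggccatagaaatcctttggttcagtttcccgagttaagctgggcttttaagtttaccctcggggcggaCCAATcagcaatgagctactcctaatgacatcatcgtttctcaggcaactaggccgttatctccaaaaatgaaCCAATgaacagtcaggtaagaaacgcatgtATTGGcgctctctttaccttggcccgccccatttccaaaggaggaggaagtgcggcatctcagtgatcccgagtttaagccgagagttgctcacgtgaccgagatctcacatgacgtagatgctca
The Hnrnpl promoter holds 4 CCAAT boxes, that of Hnrnpa1 holds 4 and that of Hnrnph2 holds 3, counting both strands. RefSeq promoters were matched for 31 of the 33 genes, 43 in all. CCAAT was found in 51.2% of them and in 37.4% of all 32851 promoters. The SP box GGGCGG was in 83.7% of the promoters of these genes and in 35.7% of all, and the ETS box CCGGAAG was in 23.3% and in 8.86%. The TATAAA box was in 9.30% of the promoters of these genes and in 13.6% of all, and the MYB box CAACNG was in 44.2% and in 35.0%. The NRF1 box was in 2.33% and in 0.971%. Some genes have several promoters, and these can overlap, so the same bases can count more than once. Counted by gene, CCAAT was in 18 of the 31 genes, the SP box in 26 and the ETS box in 6. TATAAA was in 4, the MYB box in 14 and the NRF1 box in 1. Both strands were searched for each box, and letters shared by overlapping boxes counted for each of them. The boxes are a description and were not related to the fold changes.

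RSEM divides the reads of a gene over its transcripts, so the effective length per library is an average over isoforms weighted by their estimated abundance. In GENCODE M39, 258 of 475 annotated transcripts of the Srsf and Tra2 genes and 178 of 701 of the Hnrnp genes are NMD targets. The effective length could be taken for 32 genes with at least 50 expected counts in each library, all except Srsf12. The groups did not overlap in 17 of the 32, longer in circSRY KO in 11 and shorter in 6, as in 55.5% of all such genes. The median log2 ratio was 0.01 over the 32 genes and 0.01 over all. A gap of over 10% between the groups, a limit set after the values were seen, was found in 3 of the 32, and in 12.3% of all such genes.

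These 3 genes were Hnrnpl, Srsf5 and Hnrnpk. The effective length of Hnrnpl was 1600 and 1504 bases in circSRY KO and 1317 and 1289 bases in control. That of Srsf5, with 55 NMD transcripts of 97, was 1472 and 1445 bases in circSRY KO and 1265 and 1244 bases in control. That of Hnrnpk was 964 and 836 bases in circSRY KO and 1156 and 1161 bases in control. Hnrnpl and Srsf5 were longer and Hnrnpk was shorter in circSRY KO, and which isoforms account for this was not measured. Under that limit, Hnrnph1 had 1141 and 1479 bases in circSRY KO and 1651 and 1613 bases in control. Hnrnpr had 2052 and 1494 bases in circSRY KO and 1257 and 1395 bases in control, with circSRY KO mice far from each other. With the length taken into the fit as an offset, 2 genes lost their call and 5 gained one. Hnrnpk (log2 fold change -0.75, edgeR adjusted p = 0.0888) and Srsf12 were no longer called. Srsf5 (log2 fold change -1.07, edgeR adjusted p = 0.0209) and Hnrnpf (log2 fold change -1.03, edgeR adjusted p = 0.029) were called, as were Hnrnpa3, Srsf2 and Srsf7. Hnrnpa0, annotated with 1 transcript, was 2443 and 2454 bases in circSRY KO and 2432 and 2419 bases in control. This gene with a single isoform differed by a few bases between groups that did not overlap. A lack of overlap in effective length thus does not by itself show a change of isoforms.

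**Figure D4:**
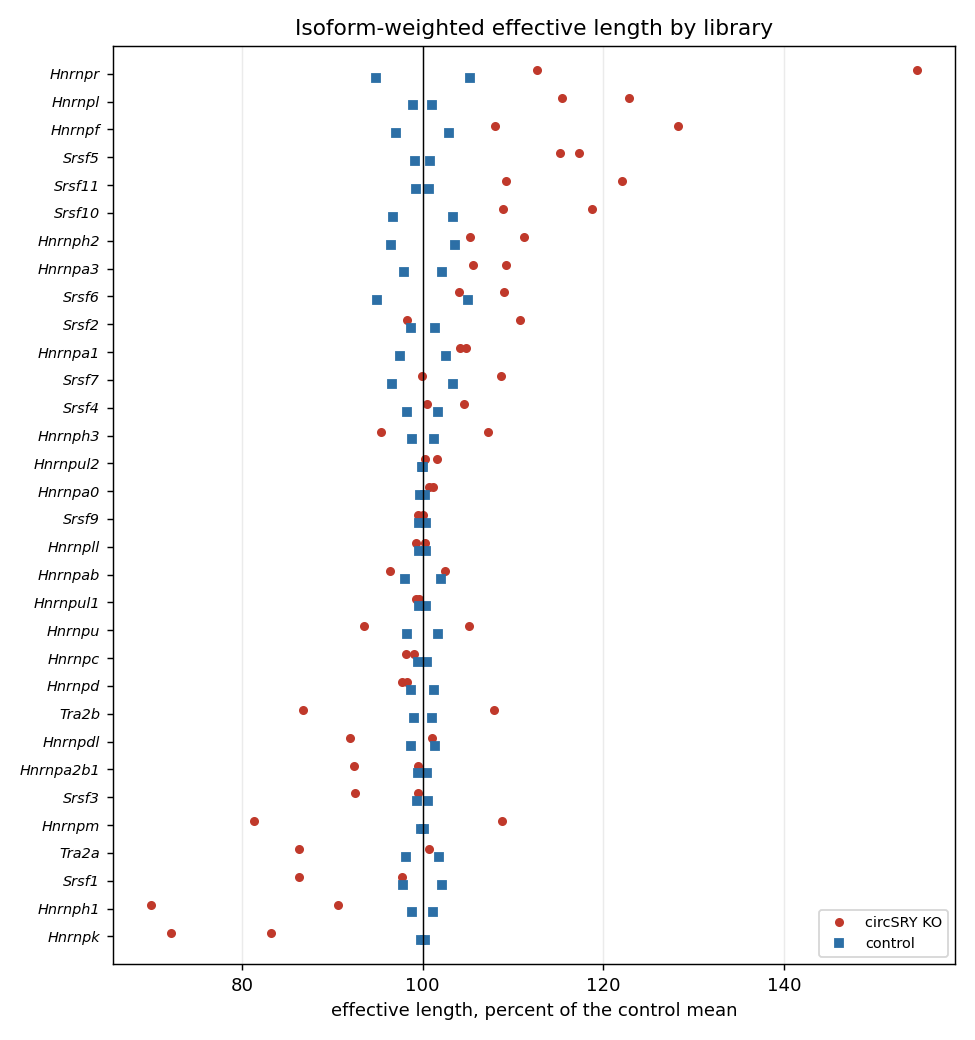
Effective length of 32 genes in each library as a percentage of the mean of the control libraries, with circSRY KO as red circles above control as blue squares. Hnrnpl and Srsf5 lie above 100 and Hnrnpk below it by gaps of over 10%, and Hnrnpr is longer in circSRY KO with the widest spread between the 2 mice.

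The genes that modify, assist or resemble these regulators were counted in the same fit. In that fit 15.0% of all tested genes were called lower and 20.0% were called higher. Of 24 SR-related proteins, which carry arginine-serine stretches outside the Srsf series, 15 were called lower and 0 higher, with a median log2 fold change of -1.35. Srek1 had a log2 fold change of -1.91 (edgeR adjusted p = 0.000456), U2af2, the U2AF subunit that reads the polypyrimidine tract, one of -1.90 (edgeR adjusted p = 0.000510), the speckle protein Pnn one of -1.87 (edgeR adjusted p = 0.000513) and Scaf1 one of -1.93 (edgeR adjusted p = 0.000678). Of 11 tested SR kinases and import receptors, 5 were called lower and 0 higher, with a median of -0.28. The receptor Tnpo3, which carries phosphorylated SR proteins into the nucleus, had a log2 fold change of -1.96 (edgeR adjusted p = 0.000620), and Tnpo2, a relative of the import receptor of hnRNP A1, one of -1.62 (edgeR adjusted p = 0.00150). The kinases Dyrk1a and Prpf4b had log2 fold changes of -1.63 (edgeR adjusted p = 0.00221) and -1.49 (edgeR adjusted p = 0.00301).

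Of 20 other hnRNP-class proteins, 8 were called lower and 0 higher, with a median of -0.82. Pcbp1, a KH-domain binder of C-rich RNA like Hnrnpk, had a log2 fold change of -2.34 (edgeR adjusted p = 0.000224), Khsrp, a factor of AU-rich mRNA decay, one of -2.15 (edgeR adjusted p = 0.000271), Tardbp (TDP-43) one of -1.67 (edgeR adjusted p = 0.00125) and Celf1, a binder of GU-rich RNA, one of -1.73 (edgeR adjusted p = 0.00164). Of 9 splicing regulators known from the germ line, 6 were called lower and 0 higher, with a median of -1.41. Among them Ptbp2, the PTB form of germ cells and neurons, had 80.84 and 63.14 TPM in circSRY KO and 209.27 and 190.75 TPM in control (log2 fold change -1.56, edgeR adjusted p = 0.00191). Its paralogue Ptbp1, named after its values were seen, had 53.87 and 85.42 TPM in circSRY KO and 107.72 and 103.18 TPM in control and was not called (log2 fold change -0.45, edgeR adjusted p = 0.259). The paralogues Rbmx and Rbmxl2 were picked in the same way, and neither was called. Their log2 fold changes were 0.34 (edgeR adjusted p = 0.541) and -0.48 (edgeR adjusted p = 0.261). Rbm5, required for spermatid differentiation in mice, had a log2 fold change of -1.92 (edgeR adjusted p = 0.000706), Dazap1, a partner of DAZ proteins, one of -1.82 (edgeR adjusted p = 0.000719) and Khdrbs1, known as Sam68, one of -1.52 (edgeR adjusted p = 0.00266).

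The NMD core, which removes poison exon transcripts, had 4 of 10 genes lower and 1 higher, with a median of -0.50. Upf1, the helicase at its centre, had 15.79 and 23.47 TPM in circSRY KO and 137.52 and 109.79 TPM in control (log2 fold change -2.44, edgeR adjusted p = 0.000153). The X-linked Upf3b had 9.94 and 18.13 TPM in circSRY KO and 6.15 and 6.69 TPM in control (log2 fold change 1.21, edgeR adjusted p = 0.0162). Smg8 and Smg9, partners of the Upf1 kinase, had log2 fold changes of -1.64 (edgeR adjusted p = 0.00174) and -1.24 (edgeR adjusted p = 0.0128). Of 46 core spliceosome genes 13 (28.3%) were called lower and 0 higher, with a median of -0.59. Of all tested genes 15.0% were called lower. Prpf8, the largest protein of the catalytic core, had a log2 fold change of -2.12 (edgeR adjusted p = 0.000658), the U5 protein Snrnp40 one of -1.82 (edgeR adjusted p = 0.000675), the Sm protein Snrpb one of -1.81 (edgeR adjusted p = 0.00119) and the U2 protein Sf3a2 one of -1.45 (edgeR adjusted p = 0.00241). Without control replicate 2 the counts called lower were 9 SR-related, 2 kinase and import, 5 hnRNP-class, 3 germ line, 2 NMD and 5 spliceosome genes, where 5.73% of all tested genes were called lower.

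**Figure D5:**
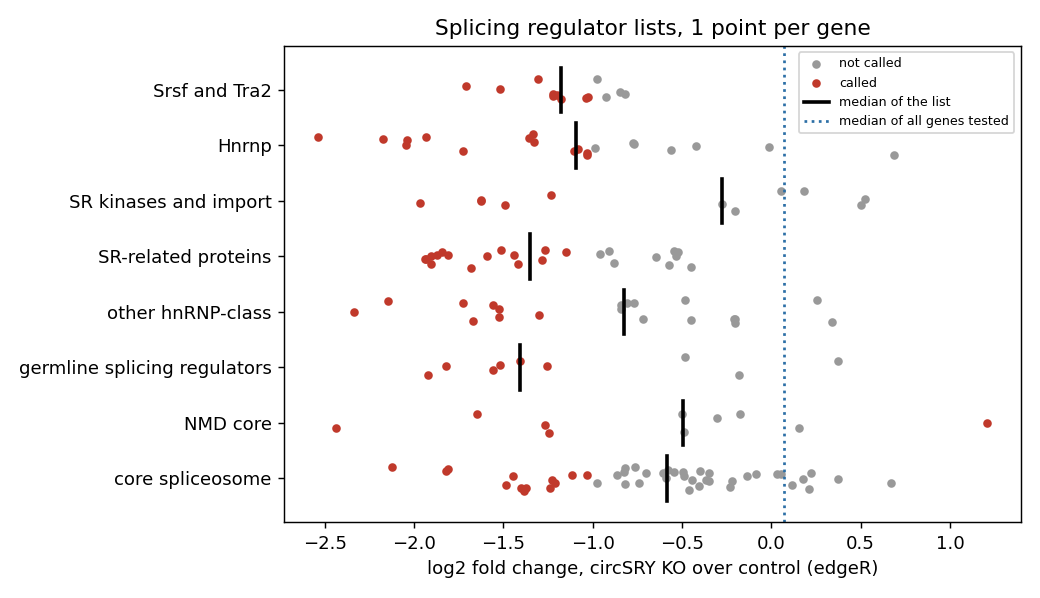
Log2 fold change of circSRY KO over control for the Srsf and Tra2 genes, the Hnrnp genes and 6 related lists, with 1 point per gene, called genes in red, a black bar at each median and the median of all genes as a dotted line. The medians run from -1.41 for germ line splicing regulators to -0.28 for SR kinases and import receptors, and Upf3b at 1.21 is the called gene on the right.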

How the data were processed

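RNA-seq of sorted primary spermatocytes was analysed for 2 circSRY KO and 2 control libraries, grouped by their labels. The submitters' processing notes name STAR 2.7.0f for alignment, RSEM 1.3.2 for counting and the build GRCm39, with mm9 also listed; the annotation release used is not given there. From RSEM the authors deposited an expected count per gene, which is not normalized and need not be whole. The authors also deposited TPM, scaled for length to a fixed sum, and FPKM, scaled for length and library size. The authors' own comparison columns (fold changes, p-values) and 4 other columns of per-sample values were not used.

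Rounded expected counts were tested with edgeR 4.0.16 in R 4.3.3 (filterByExpr, TMM, quasi-likelihood, Benjamini-Hochberg over 17766 genes), after the code was tested on simulated data. Calls use the thresholds of the paper. Effective length is the expected count divided by FPKM and library total. Counts of 7 of the 33 genes were not whole, as RSEM can share reads between genes, and 27 overlap exons of another gene. The genes named with values in each library were every called gene, those with a mean TPM of at least 100 and the extreme fold changes (30 of 33). Up to 4 called genes by adjusted p were named from each related list. Genes and lists were chosen with earlier results of these data known. Replicates differed by more than sampling noise (chi-square per gene 39.9 in circSRY KO and 11.6 in control). Alternatives were limma 3.58.1, DESeq2 1.42.0, other scalings, filters and thresholds, and leaving out each library.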

Additional observations from a re-analysis of the deposited data

How the results depend on the processing

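In every alternative 0 of the 33 genes were called higher, and 31 kept a negative log2 fold change. With upper-quartile scaling Hnrnph2 met the FDR threshold as higher (log2 fold change 0.89, edgeR adjusted p = 0.0466) but not the fold minimum. Its log2 fold change was 0.85 without circSRY KO replicate 1. Calls of lower genes numbered 24 with RLE size factors (16.1% of all tested genes), 23 with DESeq2 (14.3%), 26 with limma on log2(TPM + 1) (13.3%) and 13 with upper-quartile scaling (11.0%), against 22 (15.0%). With 1 library left out they numbered 7 to 22 and the median log2 fold change ran from -1.20 to -0.99. In those fits the lone library of a group is assumed to vary like the other group. The median was -0.89 with upper-quartile scaling, -1.32 with limma at a pseudocount of 1 and -1.33 at 0.1, but the median of all genes moved too, to 0.28, -0.12 and -0.15. Relative to all genes the median of the 33 was -1.18, -1.20 and -1.18 there, against -1.18. Of all calls 57.1% were higher in circSRY KO, where limma at a pseudocount of 1 gave 43.8% and upper-quartile scaling 69.2%. Hnrnpa1 had a log2 fold change of 0.19 with upper-quartile scaling and -0.11 to 0.07 with 1 library left out. A gap of over 10% in effective length left 3 of 17 genes. The cause of these shifts was not tested. No paired analysis was possible because the labels do not link any circSRY KO library to a control library. The depth limits Srsf12, whose counts were 9 to 34.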
